A study of Homo sapiens with 12 samples.

Results

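The 38 genes described here encode the core machinery of autophagy and the TFEB family of transcription factors, and they were taken by symbol from a table of 15798 genes, in which all 38 were present. Ribosome profiling had been performed in HCT116 cells, an established human cell line from a colorectal carcinoma, that had received trametinib (100 nM, 24 h), which inhibits the kinases MEK1 and MEK2, or DMSO, its solvent. From each dish, input mRNA (IN) and ribosome footprints (RPF, the mRNA stretches protected by a ribosome) were sequenced, which gave 12 libraries in 4 groups of 3 biological replicates. All cells of both groups were unmodified HCT116 and received cycloheximide, which halts ribosomes, shortly before lysis. The results therefore describe a single cell line at a single dose and time point.

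Autophagy encloses cytoplasm and organelles in a double membrane, the autophagosome, which fuses with the lysosome. The ULK1 kinase complex starts the process, a class III PI3-kinase complex marks the membrane with a phosphoinositide, and a conjugation machinery attaches small ATG8 proteins to that membrane, where cargo receptors bind them. The kinase mTORC1 restrains the pathway by phosphorylating ULK1, ATG13 and TFEB, and both mTORC1 and ERK signaling are known to keep TFEB, an activator of lysosomal and autophagy genes, out of the nucleus.

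Counts inside reading frames summed to between 2276693 and 2845568 per input library and to between 10127477 and 19181588 per footprint library. The median standard error (SE) of a log2 change, which also holds the spread between dishes, was 0.217 for input and 0.151 for footprints. DUSP6, a phosphatase gene induced by ERK, served as the check of the treatment labels and fell in input from 273, 228 and 205 CPM (library counts scaled to a common total, with TMM factors) in DMSO to 2.02, 1.32 and 0 CPM with trametinib. The epithelial markers EPCAM, CDH1, KRT8, KRT18 and KRT19 were present in all 12 libraries, CDX2 was at 9.98 to 19.9 CPM, and VIL1 and LGALS4 were at or near 0, as were the leukocyte marker PTPRC, the endothelial marker PECAM1 and the fibroblast marker PDGFRB. Of the other fibroblast markers, COL1A1 was low in every library and COL3A1 went from at most 0.362 CPM in DMSO to at least 11.0 CPM with trametinib. The first DMSO dish stood apart from the other dishes in both of its libraries, which touched several autophagy genes. The counts of called genes and the changes of several single genes are therefore given with and without it. Because every library was scaled to the others, a change that affected all mRNAs alike, such as a lower translation rate or less RNA per cell, cannot be seen in these values.

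To ask whether MEK1/2 inhibition altered the abundance or the ribosome occupancy of autophagy mRNAs, trametinib was compared with DMSO within each assay. Of the 38 genes, 37 had enough input counts to be tested, and MITF did not. In input mRNA, 9 of the 37 were higher and 3 were lower with trametinib (edgeR quasi-likelihood test, two-sided, Benjamini-Hochberg adjusted p under 0.05 over 10663 genes). Of all 10663 genes, 15.4% were higher and 16.8% lower. In footprints, 9 were higher and 5 were lower, beside 23.9% higher and 25.6% lower over all genes. The median log2 change of the 37 genes was 0.18 in input and 0.12 in footprints, and that of all genes was -0.0015 and -0.013. The medians of the 37 genes were 0.29 and 0.22 without the first DMSO dish. Of the 12 genes called in input, 4 (PIK3C3, BECN1, GABARAP and OPTN) were called in every alternative fit and without any single library, and of the 14 called in footprints, 8 were (those 4, ATG14, WIPI2, ATG3 and ATG16L1). By role, the genes higher in input were 3 of 6 in the PI3-kinase complexes, 2 of 6 in membrane supply and phosphoinositide reading, 1 of 4 ATG8 proteins and 3 of 5 cargo receptors. In footprints these were 3 of 6, 2 of 6, 2 of 4 and 1 of 5, and 1 of 5 in the ULK1 complex. The conjugation machinery held 3 of 9 genes that fell in each assay and no gene that rose. The roles, of few genes each, were not compared by a test.

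**Figure D1:**
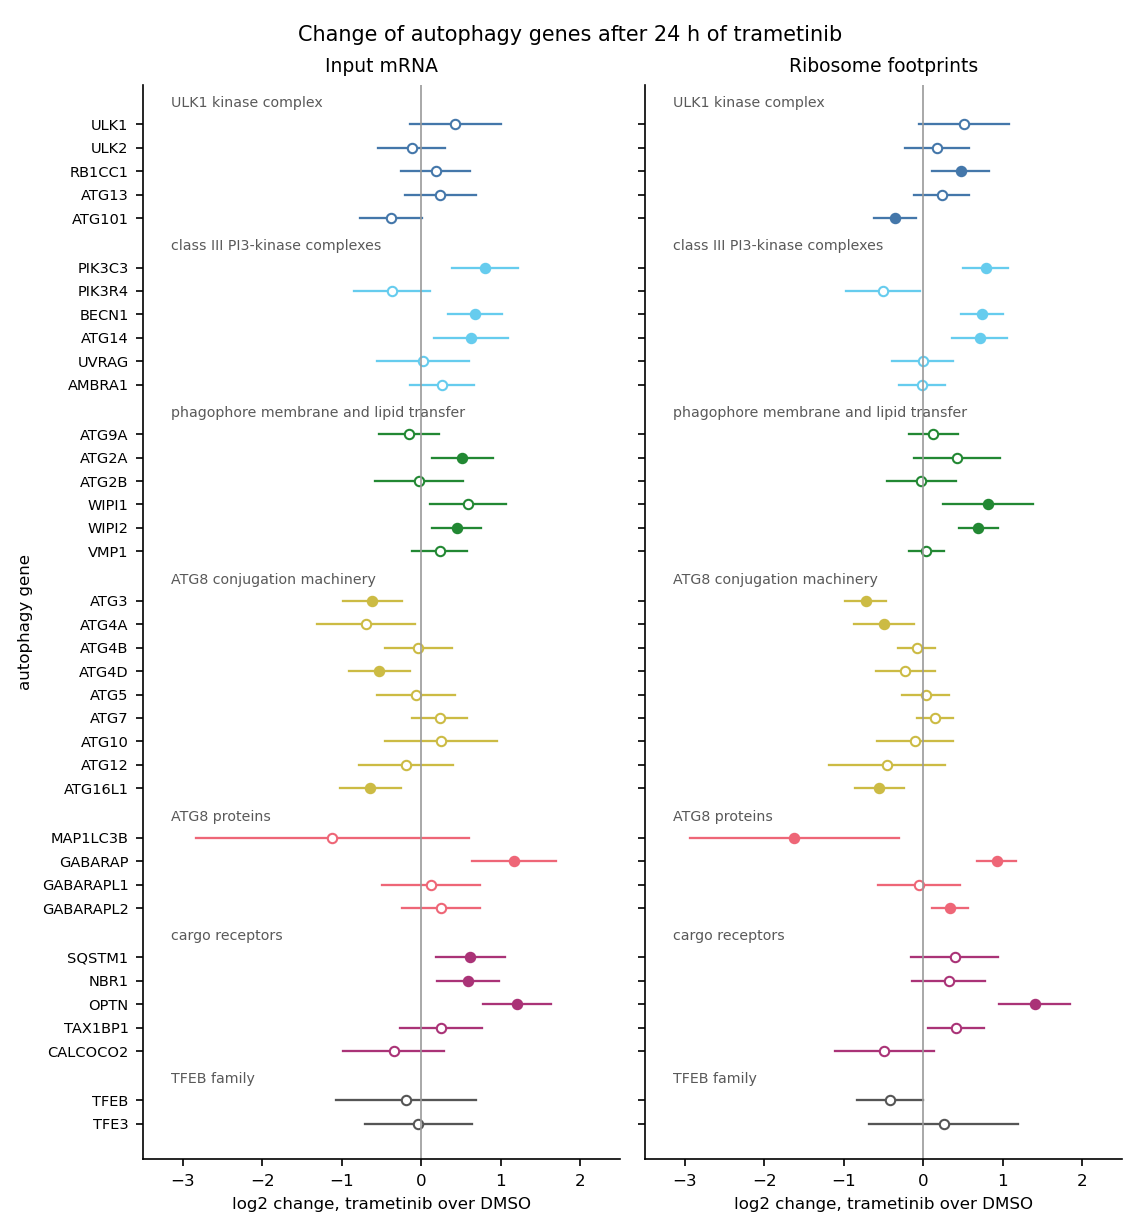
Log2 change of trametinib over DMSO (x axis) for the 37 tested autophagy genes (y axis, grouped by role) in input mRNA (left) and ribosome footprints (right). Points are edgeR estimates from 3 against 3 libraries, bars are 95% intervals, and filled points passed an adjusted p under 0.05. OPTN and GABARAP lay farthest to the right in both panels, and MAP1LC3B had the widest interval.

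The ULK1 kinase complex consists of the kinase ULK1 or its paralog ULK2, the scaffold RB1CC1 (FIP200) and the adaptors ATG13 and ATG101. None of the 5 genes was called in input. In footprints RB1CC1 rose by 0.47 (SE 0.16, edgeR adjusted p = 0.037) and ATG101 fell by 0.35 (SE 0.12, edgeR adjusted p = 0.032). ATG101 was at 54.2, 47.8 and 51.6 CPM in the DMSO footprint libraries and at 39.8, 44.4 and 36.0 CPM with trametinib, so that the groups did not overlap. Over all tested genes the groups did not overlap in 46.7% in input and in 59.6% in footprints. These shares stand beside every later statement of this kind. RB1CC1 overlapped, because the first DMSO library, at 61.8 CPM, lay just above the lowest trametinib library, at 61.3 CPM. Both calls depended on single libraries. The call of RB1CC1 was lost without any footprint library other than the first DMSO and the second trametinib library, with adjusted p reaching 0.13, and that of ATG101 without the third DMSO, the first trametinib or the third trametinib library, with adjusted p reaching 0.11. ULK1 changed by 0.43 in input and 0.52 in footprints and ATG13 by 0.24 and 0.23, without passing the test. With the replicate number as a block, ULK1 was called in footprints (0.56, edgeR adjusted p = 0.035). ULK2 was the gene with the lowest ribosome density of the 37, with input at 27.1 to 36.9 CPM and footprints at 3.95 to 5.75 CPM over all dishes.

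The class III PI3-kinase complexes hold the lipid kinase PIK3C3 (VPS34), its scaffold PIK3R4 (VPS15) and BECN1, joined by ATG14 in the autophagy complex or by UVRAG in the endosomal complex, with AMBRA1 as a BECN1 partner that links it to upstream signals. PIK3C3, BECN1 and ATG14 were called higher in both assays. PIK3C3 (chromosome 18, 41955234 to 42087830, plus strand, GRCh38) increased by 0.80 in input (SE 0.19, edgeR adjusted p = 0.0067) and by 0.78 in footprints (SE 0.13, edgeR adjusted p = 0.0011). Its footprints went from 81.1, 62.7 and 65.1 CPM to 116, 115 and 129 CPM. BECN1 (chromosome 17, 42810134 to 42833350, minus strand) increased by 0.68 in input (SE 0.16, edgeR adjusted p = 0.0056) and by 0.74 in footprints (SE 0.12, edgeR adjusted p = 9.2e-04). Its footprints went from 69.6, 54.4 and 61.8 CPM to 104, 103 and 103 CPM, and in neither gene did the groups overlap in either assay. ATG14, which directs the complex to the forming autophagosome, increased by 0.63 in input (SE 0.21, edgeR adjusted p = 0.039) and by 0.71 in footprints (SE 0.15, edgeR adjusted p = 0.0046). The input call of ATG14 was lost without any of 5 of the 6 input libraries, the first DMSO library among them (0.52, edgeR adjusted p = 0.084), whereas its footprint call held in every fit. UVRAG (0.02 and -0.01) and AMBRA1 (0.26 and -0.01) were not called. PIK3R4 went the other way, with -0.37 in input and -0.51 in footprints (edgeR adjusted p = 0.22 and 0.068). With the replicate number as a block PIK3R4 was called lower in footprints (-0.47, edgeR adjusted p = 0.033). Without the first DMSO dish it was called lower in both assays (-0.59 and -0.73, edgeR adjusted p = 0.013 and 1.0e-04). In that dish PIK3R4 stood at 46.4 CPM in input and 41.5 CPM in footprints, beside 81.5 to 81.9 and 68.8 to 74.1 CPM in the other DMSO dishes.

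Membrane for the growing autophagosome is supplied by the scramblases ATG9A and VMP1 and by the lipid transfer proteins ATG2A and ATG2B, and the phosphoinositide is read by WIPI1 and WIPI2. WIPI2, which recruits ATG16L1, increased by 0.44 in input (SE 0.14, edgeR adjusted p = 0.032) and by 0.69 in footprints (SE 0.11, edgeR adjusted p = 9.1e-04). Its footprints went from 57.6, 52.6 and 58.4 CPM to 90.7, 98.2 and 83.2 CPM. WIPI1 had the larger estimates, 0.59 in input (edgeR adjusted p = 0.056) and 0.81 in footprints (SE 0.25, edgeR adjusted p = 0.024), and without the first DMSO dish they were 0.89 and 1.197 (edgeR adjusted p = 0.0018 in input, lower in footprints). With the replicate number as a block, WIPI1 was called higher in input as well. ATG2A was called in input only (0.52, SE 0.18, edgeR adjusted p = 0.039). Its footprint change of 0.42 had an adjusted p of 0.17 (0.43 and edgeR adjusted p = 0.027 with the replicate number as a block), with libraries at 14.8 to 26.0 CPM in DMSO and at 21.8 to 32.6 CPM in trametinib. The footprint call of WIPI2 held in every fit, while the footprint call of WIPI1 and the input calls of WIPI2 and ATG2A were lost without any of 4 of the 6 libraries of their assay, the first trametinib library in each case, with adjusted p reaching 0.082, 0.15 and 0.14. ATG9A (-0.16 and 0.12), ATG2B (-0.03 and -0.03) and VMP1 (0.23 and 0.04) did not pass the test. A stretch of 29.5% of the ATG9A reading frame is shared with another gene model, and reads inside it fit more than 1 gene.

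The conjugation machinery attaches ATG8 proteins to lipid. ATG4A, ATG4B and ATG4D are the proteases that trim and release ATG8 proteins, ATG7 is the activating enzyme, ATG3 and ATG10 are the conjugating enzymes, and ATG12 with ATG5 and ATG16L1 forms the ligase. ATG3 (chromosome 3, 112532510 to 112562046, minus strand) decreased by 0.61 in input (SE 0.17, edgeR adjusted p = 0.016) and by 0.72 in footprints (SE 0.11, edgeR adjusted p = 9.4e-04). Its footprints were at 58.1, 49.0 and 57.7 CPM in DMSO and at 33.2, 31.5 and 35.2 CPM in trametinib. ATG16L1 decreased by 0.64 in input (SE 0.18, edgeR adjusted p = 0.014) and by 0.55 in footprints (SE 0.14, edgeR adjusted p = 0.0090), from 36.5, 37.6 and 45.2 CPM to 26.2, 25.0 and 30.3 CPM in footprints. The groups of both genes did not overlap in either assay. ATG4D was called lower in input (-0.53, SE 0.18, edgeR adjusted p = 0.036) and changed by -0.23 in footprints (edgeR adjusted p = 0.27). ATG4A was called lower in footprints (-0.49, SE 0.16, edgeR adjusted p = 0.034) and changed by -0.70 in input (edgeR adjusted p = 0.075). The footprint calls of ATG3 and ATG16L1 held in every fit. In input they were lost without the first trametinib library, and also without the third for ATG3 and the second for ATG16L1 (highest adjusted p 0.084 and 0.070), and the calls of ATG4D and ATG4A were each lost without any trametinib library of their assay, and also without the third DMSO library for ATG4D and the first for ATG4A (highest adjusted p 0.12 and 0.11). ATG4B (-0.03 and -0.08), ATG5 (-0.07 and 0.03), ATG7 (0.23 and 0.15), ATG10 (0.25 and -0.11) and ATG12 (-0.19 and -0.46) were not called. Not calling them does not show that they were unchanged: the 95% interval of the footprint change reached from -0.08 to 0.37 for ATG7 but from -1.19 to 0.28 for ATG12. Without the first DMSO dish the changes of ATG12 turned to 0.33 in input and 0.10 in footprints, again without a call.

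TFEB, TFE3 and MITF bind the CLEAR element, whose core is the E-box CACGTG. RefSeq promoters (250 bases before to 50 after the start site, GRCh38.p14) were given for 35 of the 38 genes. Both strands of the first promoter listed for each gene were searched. CACGTG was found in 2 of the 35, ATG14, which rose, and ATG3, which fell, that is in 5.71%, beside 7.43% of all 27305 promoters of the table and 10.5% of those of tested genes. The longer letters TCACGTGA, which contain the E-box, were found in ATG3 alone (1 of 35 or 2.86%, beside 1.04% of all promoters and 2.02% of those of tested genes). The following windows show those E-boxes in capitals, 5′ to 3′ on the strand of the gene.
ATG14, chr14:55411826-55411871, E-box beginning at position -21 from the start site: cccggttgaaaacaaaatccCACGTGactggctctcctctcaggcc
ATG3, chr3:112561955-112562000, E-box beginning at position -18: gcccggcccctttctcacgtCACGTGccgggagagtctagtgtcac
ATG3, chr3:112561932-112561977, E-box beginning at position 5: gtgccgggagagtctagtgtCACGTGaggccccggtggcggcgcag
The AP-1 letters TGACTCA were found in TFE3 alone (4.92% of all promoters) and the FOXO letters GTAAACA in CALCOCO2 alone (3.41% of all promoters). A match of letters is a description of the sequence and not of binding.

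The ATG8 proteins are small ubiquitin-like proteins. Of these, GABARAP rose by 1.17 in input (SE 0.24, edgeR adjusted p = 0.0027) and by 0.92 in footprints (SE 0.11, edgeR adjusted p = 2.2e-04). GABARAP (chromosome 17, 7240008 to 7242449, minus strand) stood at 12.0, 11.6 and 19.1 CPM in DMSO input and at 35.6, 27.2 and 32.9 CPM in trametinib input. In footprints it stood at 78.1, 80.3 and 86.4 CPM and at 167, 157 and 139.9 CPM. Every trametinib library lay above every DMSO library in both assays, where 46.7% (input) and 59.6% (footprints) of all genes had groups without overlap. Both calls held without any single library. GABARAPL2 (GATE-16) rose in footprints by 0.34 (SE 0.10, edgeR adjusted p = 0.022), from 144, 132 and 141 CPM to 171, 171 and 186 CPM without overlap, and changed by 0.25 in input (edgeR adjusted p = 0.44). Its footprint call was lost without any trametinib library or the second DMSO library (highest adjusted p 0.074). GABARAPL1 changed by 0.12 and -0.05.

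MAP1LC3B (LC3B), the ATG8 protein most used as a marker of autophagosomes, was poorly measured here. Reads were counted only where they fit a single gene symbol, and 286 of the 368 windows of 30 bases in the coding sequence of its transcripts (77.7%) also occur in MAP1LC3B2. In the reading frame of 375 bases, 60 windows did not, and the runs that they cover are shown, since reads of that length outside them fit both genes.
MAP1LC3B, bases 1 to 59 of the reading frame: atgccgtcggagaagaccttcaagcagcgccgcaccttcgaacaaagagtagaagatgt
MAP1LC3B, bases 309 to 367: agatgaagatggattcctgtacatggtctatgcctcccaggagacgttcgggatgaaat
Its input held 38, 4 and 13 counts in DMSO and 11, 0 and 11 counts in trametinib, and its footprints held 1269, 171 and 210 counts and 222, 188 and 147 counts. Scaled to CPM, the DMSO footprint libraries held 75.0, 17.8 and 12.2 and the trametinib libraries 10.9, 12.4 and 11.1. The first DMSO library was thus more than 4 times as high as any other, and the other 5 libraries lay close together. The footprint change was -1.62 (SE 0.58, 95% interval -2.94 to -0.31, edgeR adjusted p = 0.046), but without the first DMSO dish it was -0.36 (SE 0.17, edgeR adjusted p = 0.080), and the call was also lost without any trametinib footprint library (highest adjusted p 0.13), with library totals, limma-trend and DESeq2, and with the replicate number as a block (-1.19, edgeR adjusted p = 0.077). In input the change was -1.12 (edgeR adjusted p = 0.29), and -0.05 without that dish.

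Cargo receptors bind ubiquitinated cargo and ATG8 proteins at the same time. OPTN (optineurin, chromosome 10, 13099449 to 13138308, plus strand), a receptor for mitochondria and bacteria, had the largest increase among the 37 genes in both assays. In input it stood at 70.8, 52.6 and 40.1 CPM in DMSO and at 117, 132 and 129 CPM in trametinib, a change of 1.21 (SE 0.20, edgeR adjusted p = 5.4e-04). In footprints it stood at 35.7, 20.4 and 21.8 CPM and at 67.8, 68.5 and 71.1 CPM, a change of 1.40 (SE 0.20, edgeR adjusted p = 5.4e-04). The groups did not overlap, and both calls held without any single library. Without the first DMSO dish the changes of OPTN were 1.44 in input and 1.71 in footprints.

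SQSTM1 (p62), the receptor of ubiquitinated aggregates, and NBR1, its partner, were called higher in input by 0.62 (SE 0.20, edgeR adjusted p = 0.032) and 0.58 (SE 0.18, edgeR adjusted p = 0.026). SQSTM1 input was at 612, 344 and 373 CPM in DMSO and at 625, 735 and 680.4 CPM in trametinib. Its footprints were at 474, 258 and 238 CPM in DMSO and at 418, 450.4 and 406 CPM in trametinib. In input the groups were thus separated by the narrow gap between the first DMSO library and the lowest trametinib library, and in footprints the first DMSO library lay above all trametinib libraries. The footprint changes were 0.39 for SQSTM1 and 0.32 for NBR1 (edgeR adjusted p = 0.20 and 0.22), and 0.78 and 0.63 without the first DMSO dish (edgeR adjusted p = 2.4e-05 and 8.6e-05). The input call of SQSTM1 was lost without any input library other than that one, and the call of NBR1 without any of 4, with adjusted p reaching 0.12 in both. TAX1BP1, a further ubiquitin-binding receptor, changed by 0.25 and 0.41 (edgeR adjusted p = 0.45 and 0.057), and was called in footprints with the replicate number as a block (0.43, edgeR adjusted p = 0.046). CALCOCO2 (NDP52), a receptor for bacteria and mitochondria, changed by -0.35 and -0.49 (edgeR adjusted p = 0.39 and 0.17). These were 0.18 and -0.02 without the first DMSO dish, and without the third DMSO footprint library the footprint change was called (-0.70, edgeR adjusted p = 0.047).

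**Figure D2:**
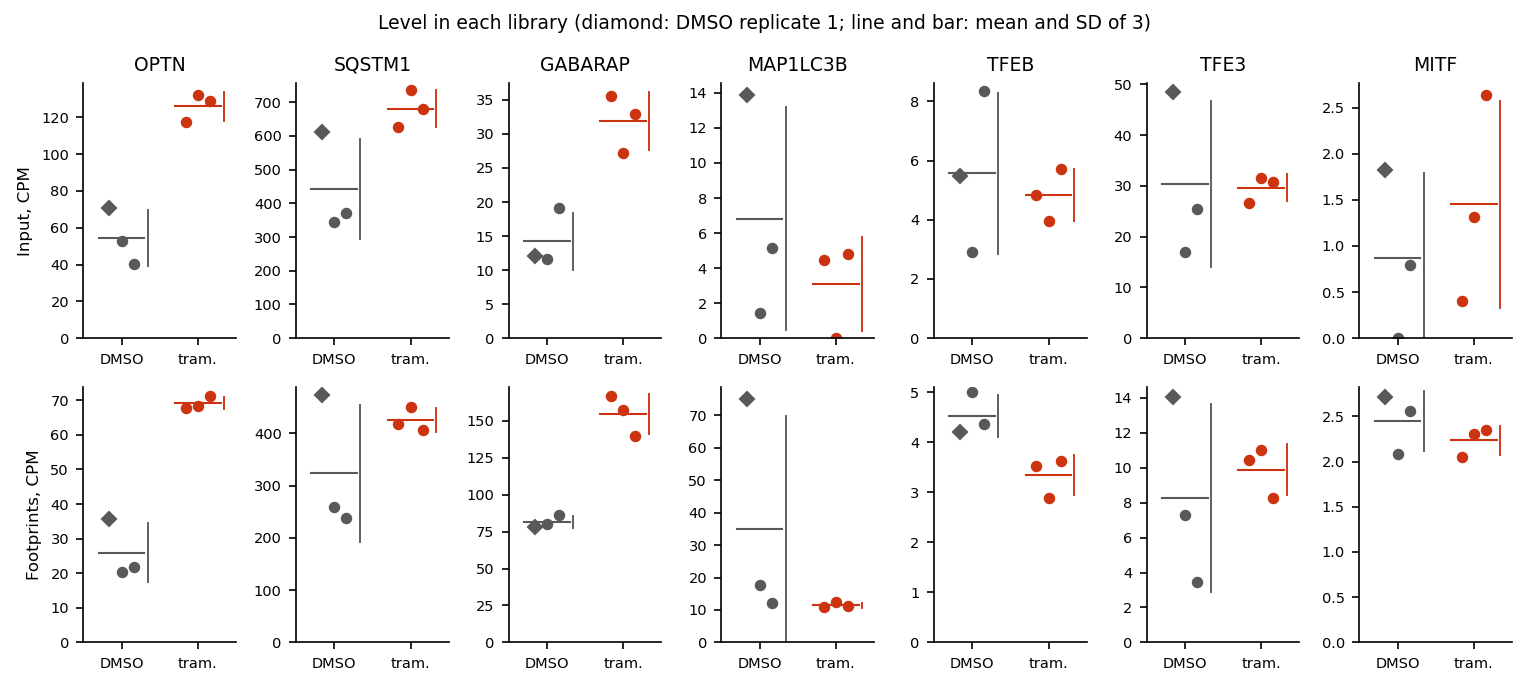
Level in CPM (y axis, linear and from 0, a separate scale in each panel) in every input (top) and footprint (bottom) library, for DMSO (grey) and trametinib (red). Points are libraries, diamonds mark the first DMSO dish, horizontal lines are means and vertical bars are SDs of 3 libraries, cut at 0. OPTN and GABARAP separate the treatments, and the diamond lies above the other DMSO libraries in OPTN, SQSTM1, MAP1LC3B, TFE3 and MITF.

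In the TFEB family, TFEB and MITF were weakly expressed, and no member was called with all libraries. TFEB input held 15, 8 and 21 counts in DMSO and 12, 9 and 13 counts in trametinib, a change of -0.19 (SE 0.41, edgeR adjusted p = 0.76). Its footprints were at 4.19, 4.99 and 4.37 CPM in DMSO and at 3.52, 2.89 and 3.63 CPM in trametinib. Every trametinib footprint library of TFEB thus lay below every DMSO library, yet the change of -0.42 (SE 0.18) had an adjusted p of 0.084. TFE3, which acts on the same element, had a smaller SE than TFEB in input but a larger one in footprints. TFE3 was at 48.5, 17.0 and 25.4 CPM in DMSO input and at 26.7, 31.6 and 30.7 CPM in trametinib input, a change of -0.03 (SE 0.31, edgeR adjusted p = 0.95). TFE3 footprints were at 14.1, 7.28 and 3.43 CPM in DMSO and at 10.4, 11.0 and 8.25 CPM in trametinib, a change of 0.26 (SE 0.41, edgeR adjusted p = 0.63). In both assays the DMSO dishes of TFE3 spanned a wider range than the trametinib dishes, which lay inside it. Without the first DMSO dish the footprint change of TFE3 was 0.99 (SE 0.26, edgeR adjusted p = 0.0049) and the input change 0.49 (SE 0.23, edgeR adjusted p = 0.12). MITF, best known from melanocytes, held 5, 0 and 2 input counts in DMSO and 1, 3 and 6 in trametinib, and 46, 20 and 44 footprint counts in DMSO and 42, 35 and 31 in trametinib, or 2.08 to 2.72 and 2.06 to 2.34 CPM. A change of MITF in mRNA or in ribosome density was not detectable at this depth.

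The first DMSO dish differed from the others in several of these genes. On the scale of log2(CPM + 1), 4 of the 37 genes, MAP1LC3B, CALCOCO2, ATG12 and TFE3, were more than 1 above the mean of the other DMSO dishes in input, and the same 4 were so in footprints, beside 2.70% and 2.49% of all genes. MAP1LC3B was 1.94 and 2.27 higher, CALCOCO2 1.22 and 1.09, ATG12 1.21 and 1.26, and TFE3 1.18 and 1.31. SQSTM1 was 0.77 and 0.93 higher, and PIK3R4 was the farthest below the other DMSO dishes in both assays, at -0.80 and -0.77. Over 8419 genes the deviations of the input and footprint libraries of this dish from their group means correlated at Pearson's r = 0.80, beside -0.11 to 0.35 for the other dishes (genes are not independent replicates). Genes of the integrated stress response, a list chosen after the data were seen, were also highest in this dish: DDIT3 input was at 234, 88.8 and 62.0 CPM in the DMSO dishes and TRIB3 at 512, 163 and 122 CPM, beside 5.26 to 10.1 and 11.4 to 12.9 CPM in trametinib. The part of this dish in the autophagy changes was measured by leaving it out, and the part of the stress response in them was not tested.

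**Figure D3:**
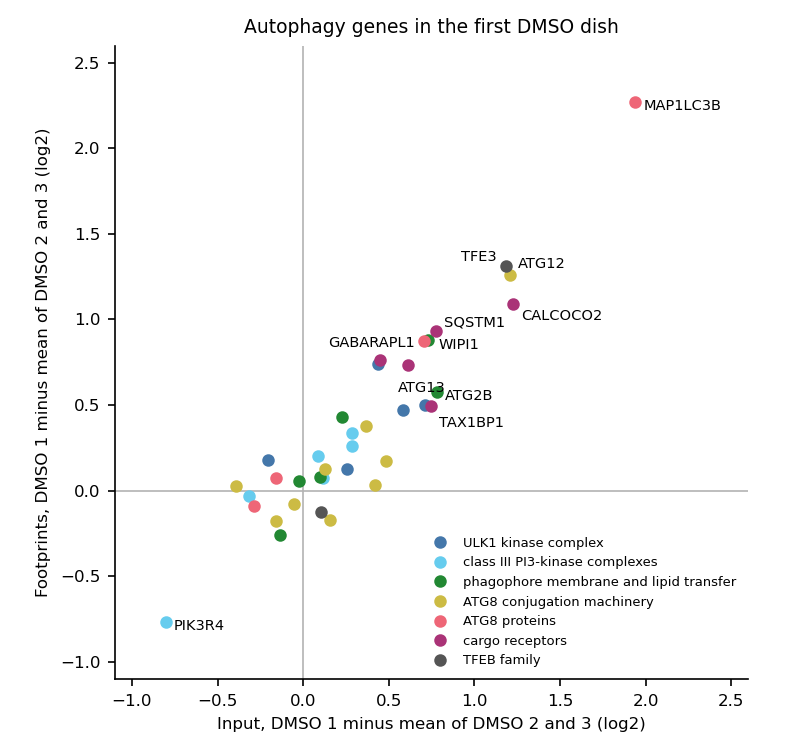
Difference between the first DMSO dish and the mean of the other DMSO dishes on the scale of log2(CPM + 1), in input (x axis) and in footprints (y axis), for the 37 tested autophagy genes coloured by role. MAP1LC3B lies highest in both assays, TFE3, ATG12 and CALCOCO2 lie together above 1 in both, and PIK3R4 is the lowest.

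Leaving out that dish, 10 of the 37 genes were higher and 4 were lower in input, beside 16.6% and 18.0% of all genes. In footprints 17 were higher and 4 were lower, beside 29.8% and 30.5% of all genes. Of the 14 genes called in footprints with all libraries and the 21 called without this dish, 12 were shared (both fits use the remaining libraries). Of these 2 fits, the genes called in the one without the dish alone were ULK1, ATG13, ATG2A, GABARAPL1, SQSTM1, NBR1, TAX1BP1 and TFE3, all higher, and PIK3R4, which was lower. With all libraries kept, TAX1BP1, PIK3R4, ULK1, ATG13 and ATG2A were each called in at least 1 alternative fit as well, and GABARAPL1, SQSTM1, NBR1 and TFE3 in none. MAP1LC3B and ATG4A were no longer called. By role, the genes higher in footprints were then 3 of 5 in the ULK1 complex, 3 of 6 in the PI3-kinase complexes, 3 of 6 in membrane supply, 3 of 4 ATG8 proteins, 4 of 5 cargo receptors and TFE3, while the conjugation machinery still held no gene that rose and 2 that fell, ATG3 and ATG16L1. With this dish left out, DMSO was represented by 2 dishes.

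**Figure D4:**
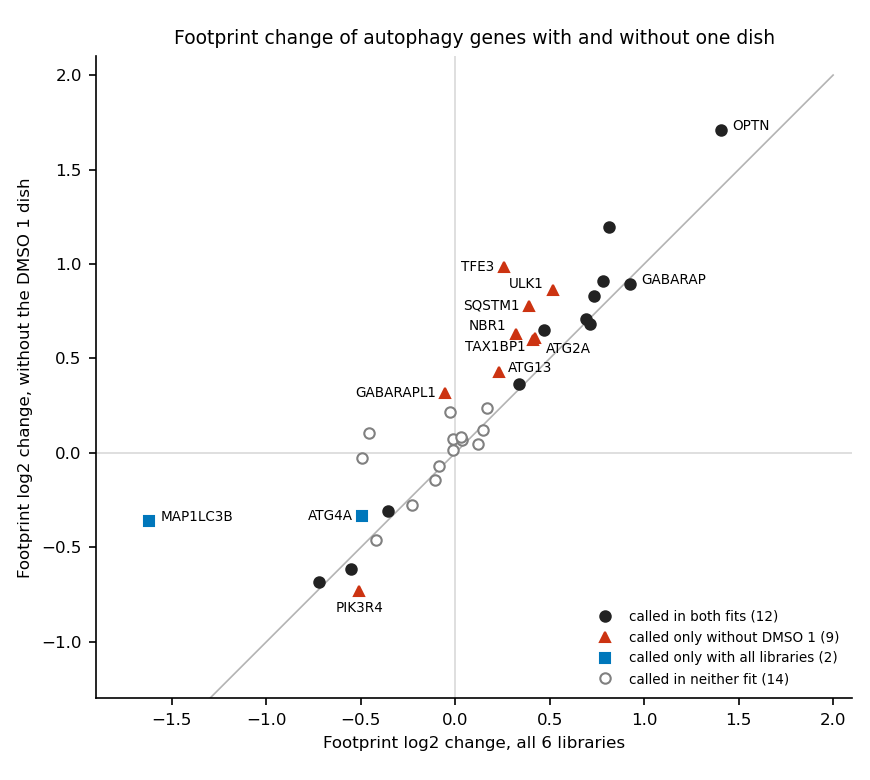
Footprint log2 change of trametinib over DMSO with all 6 footprint libraries (x axis) and without the first DMSO dish (y axis) for the 37 tested autophagy genes, with the line of equal values. Symbols mark genes called at an adjusted p under 0.05 in both fits (12), only without the dish (9), only with all libraries (2) or in neither (14). Most genes called only without the dish lie above the line.

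To ask whether ribosomes were redistributed among these mRNAs, footprints relative to input (ribosome density) were compared between treatments, as the interaction of assay and treatment over all 12 libraries. It uses the same libraries as the comparisons above. None of the 37 genes was called (edgeR quasi-likelihood test, lowest adjusted p = 0.81), beside 1.05% of all genes, 4 higher and 108 lower. At an unadjusted p under 0.05 the count was also 0, beside 876 of all genes, and DESeq2 and limma-trend made 0 calls. Without the first DMSO dish the count was again 0, beside 1.40% of all genes. The size of the change was at most 0.49, in MAP1LC3B, with a median size of 0.18 in these genes and 0.20 in all genes. For 30 of the 37 genes the 95% interval lay within a 2-fold change in either direction. OPTN changed in ribosome density by 0.20 (95% interval -0.44 to 0.84), GABARAP by -0.25 (-0.77 to 0.27) and SQSTM1 by -0.23 (-0.97 to 0.52), so that differences of these sizes were within the error. The intervals were wide for MAP1LC3B (-3.20 to 2.22), TFE3 (-0.97 to 1.55) and TFEB (-1.14 to 0.68).

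The level of ribosome density, footprint CPM over input CPM, differed far more between genes than between treatments. The scaling of the libraries hides any treatment change common to all mRNAs, so this holds for relative densities only. The median density in DMSO was 0.847 over the 37 genes and 0.966 over all genes. The ATG8 proteins were at the top, with GABARAPL2 at 7.79, GABARAP at 5.73, MAP1LC3B at 5.12 and GABARAPL1 at 3.64 in DMSO, that is above 98.2% or more of all tested genes. The value of MAP1LC3B rests on few input counts: its single DMSO dishes ranged from 2.37 to 12.3, and 1 trametinib dish had no input count. It also rests on the runs near both ends of the reading frame shown above, and is not directly comparable with that of whole reading frames. In the single dishes GABARAPL2 had a density of 8.79, 6.20 and 8.89 with DMSO and of 6.94, 9.75 and 8.64 with trametinib. That of GABARAP was 6.48, 6.92 and 4.53 with DMSO and 4.69, 5.77 and 4.25 with trametinib. Outside the ATG8 genes, none of the 37 tested genes was above 2.37, the level of CALCOCO2. At the low end, ULK2 was at 0.131, in the lowest 0.971% of all genes, followed by TFE3 at 0.272, ATG4D at 0.309 and RB1CC1 at 0.318. The treatments gave the same order at both ends, with GABARAPL2 at 8.29 and ULK2 at 0.163 in trametinib. Reading frame length moved with these levels: genes with up to 450 coding bases, ATG12, MAP1LC3B, GABARAP and GABARAPL2 among them, had a median of 1.89 (483 genes) and longer genes one of 0.940 (10105 genes). Spearman's rho with coding length was -0.41 over 10588 genes and -0.54 over the 37, as a description across genes. The part of length in the density of the ATG8 genes was not tested.

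**Figure D5:**
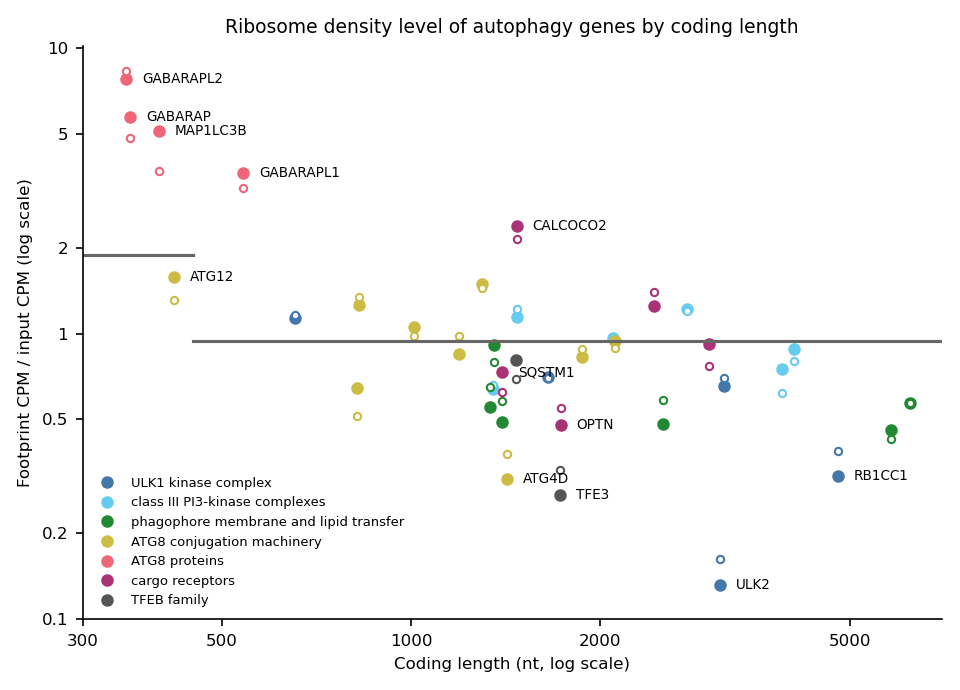
Ribosome density level (footprint CPM over input CPM, y axis, log scale) against coding length in bases (x axis, log scale) for the 37 tested autophagy genes coloured by role, in DMSO (large filled points) and trametinib (small open points). Grey lines are the medians of all genes with up to 450 coding bases (1.89) and of longer genes (0.940). The ATG8 genes lie at the upper left and ULK2 is lowest.

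Expressed per kilobase of coding sequence, the mean DMSO footprint level was highest for ATG12 (591 CPM per kb), GABARAPL2 (396), SQSTM1 (231) and GABARAP (229), and lowest for MITF (1.42), ULK2 (1.43), ATG2B (2.20) and TFEB (3.07). Per kilobase of input, ATG12 (375 CPM per kb) and SQSTM1 (317) were again highest, and MITF (0.504) and TFEB (3.79) were lowest. ATG12 owes part of its mean to the first DMSO dish, which was at 407 CPM in footprints beside 171 and 167 CPM in the others. Together the 38 genes took 0.295%, 0.239% and 0.216% of the counts of the DMSO input libraries and 0.304%, 0.321% and 0.293% of trametinib input. In footprints they took 0.293%, 0.206% and 0.203% in DMSO and 0.301%, 0.299% and 0.294% in trametinib. Through the first DMSO dish, the shares overlapped between treatments in input and were separated in footprints by a very narrow margin.

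Lists of related genes show what surrounded these changes. Of 26 other autophagy genes tested, 6 rose and none fell in input, and 8 rose and none fell in footprints, with a median of 0.20 and 0.27. The shares of all genes to set beside this and the following counts are, for input, 15.4% (higher) and 16.8% (lower) and, for footprints, 23.9% (higher) and 25.6% (lower). TP53INP1, a stress-induced protein that binds ATG8 proteins, rose in footprints by 1.99 (SE 0.14), the tethering subunit VPS39 by 0.79 (SE 0.10) and the autophagosome fusion protein VAMP8 by 0.78 (SE 0.11). Of 14 receptors and other genes of organelle-selective autophagy, 7 rose and none fell in input, and 8 rose and 1 fell in footprints, PHB2, a mitochondrial inner membrane protein, by 0.77 (SE 0.11). CALCOCO1 rose by 1.28 (SE 0.15), the reticulophagy receptor RETREG1 by 1.35 (SE 0.17) and the mitophagy kinase PINK1 by 1.16 (SE 0.12). Of 22 lysosomal genes known as TFEB targets, 8 rose and 1 fell in input, and 14 rose and 2 fell in footprints, with a median of 0.48 and 0.68. Those that fell were the chloride transporter CLCN7 in input, by 0.53, and the galactosidase GLA and the calcium channel MCOLN1 in footprints, by 0.56 and 0.64. The sialidase NEU1 rose in footprints by 1.45 (SE 0.13) and the protease CTSD by 1.42 (SE 0.14). Of 28 genes of the mTORC1, Rag GTPase and folliculin arm that controls TFEB, 3 rose and 2 fell in input, and 6 rose and 2 fell in footprints, with a median of 0.0060 and 0.0095. RRAGB rose by 1.03 (SE 0.14), the calcineurin subunit PPP3CA by 0.76 (SE 0.10) and LAMTOR5 by 0.71 (SE 0.13), all in footprints, while the kinase MTOR and its activator RHEB fell in both assays. Without the first DMSO dish, 13 of the other autophagy genes rose and 1 fell in footprints, 9 and 1 of the organelle-selective genes, 15 and 2 of the lysosomal genes and 7 and 4 of the mTORC1 arm, beside 29.8% and 30.5% of all genes. None of these genes was called in ribosome density, where the lysosomal list had a median of 0.20 and the 37 autophagy genes one of -0.011. No test compared the lists with each other or with the remaining genes.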

How the data were processed

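The table as deposited gives unnormalized read counts of 12 libraries. Fragments had been size-selected at 25 to 35 bases per the labels. Per the methods of the authors, reads aligning to rRNA or tRNA were discarded with Bowtie 1.2.2, the rest were mapped to the basic transcripts of Gencode V38, and reads were counted inside the reading frames of a single gene symbol. Another 12 columns of normalized values and the authors' own fold changes and adjusted p-values (DESeq2 1.46.0) were not used. A gene was tested where 3 or more of the 6 input libraries held 10 or more counts (10663 genes). Tests were edgeR 4.0.16 quasi-likelihood fits (glmQLFit, R 4.3.3), two-sided, with TMM scaling within each assay and Benjamini-Hochberg adjustment, and were checked on simulated counts. P-values set the treatment difference against the spread between 3 replicates a group, which edgeR estimates for each gene with information from all genes. The main ribosome density fit took input and footprints of a dish as independent libraries. Alternatives were median-of-ratios factors, library totals, other filters, limma-trend (limma 3.58.1, prior count 2), DESeq2 1.42.0, replicate and dish terms, and leaving out libraries. Leaving out the first DMSO dish was chosen after the data were seen. Input and footprints of equal treatment and number were taken as 1 dish, since the methods describe a common lysate. As a check, the correlation within a pair of deviations from the group mean was 0.80, 0.19 and 0.35 for the DMSO dishes, and 0.14, 0.073 and -0.11 for the trametinib dishes. Between same-numbered libraries of the 2 treatments it was 0.11, 0.13 and 0.29 in footprints and 0.073, 0.066 and 0.31 in input. The values were alike in both assays and do not show that the numbers pair the treatments. Footprint results whose call changed with the replicate number as a block are given with both values. In input only the call of WIPI1 changed with the block, which is stated with that gene. The genes and the lists were chosen with earlier results of these data known. Every gene is named by role, values of every library are given for genes with an absolute log2 change of at least 1 that passed the test and for TFEB, TFE3, MITF, MAP1LC3B and SQSTM1, and up to 3 genes with the lowest footprint p of each other list are named, of which 1 is not reported here. Library values of other genes, and PHB2, CLCN7, GLA, MCOLN1, MTOR and RHEB, were added after their values were seen. Gene coordinates and coding lengths are from Gencode V44 on GRCh38, and promoters from RefSeq. Intervals cover the fitted error of the libraries only.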

Additional observations from a re-analysis of the deposited data

How the results depend on the processing

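Over the alternatives, 456 footprint values, 471 input values and 777 ribosome density values of single genes stayed on their side of the threshold, 40 in all crossed it to become called, and 67 lost their call. Within input or footprints, leaving out the first DMSO dish is the same fit as leaving out its library of that assay. These totals count that fit under both names. Values that were never called could cross 0. GABARAPL1 was called in the opposite direction, with 0.32 (edgeR adjusted p = 0.017) in place of -0.05 in footprints, when the first DMSO footprint library or its whole dish was left out, and ranged from -0.20 to 0.32 without single libraries. Beside the calls lost without single libraries, DESeq2 ended the input calls of ATG14, ATG2A and ATG4D, no filter those of ATG2A and WIPI2, and library totals the footprint calls of ATG101 and ATG4A. Calls gained with all libraries were WIPI1 in input (library totals, no filter, limma-trend, replicate block) and, in footprints, TAX1BP1 (library totals, limma-trend, DESeq2, replicate block), PIK3R4 (no filter, DESeq2, replicate block), ULK1 (library totals, replicate block), ATG13 and ATG7 (library totals) and ATG2A (replicate block). In footprints, the autophagy genes lower were 2 in place of 5 with library totals, which shift the median log2 change of all genes to 0.16 and that of ribosome density to 0.18, and the genes higher were 17 in place of 9 without the first DMSO dish. The 4 genes of the whole table higher in ribosome density became 27 with library totals, 10 without a filter, 32 with DESeq2, 8 with the replicate block, 18 with a term for each dish and 13 without the first DMSO dish. Leaving out 1 library at a time, the genes of the table higher in input ranged from 1069 to 1767, the autophagy genes higher from 4 to 10 and lower from 0 to 4. In footprints the autophagy genes higher ranged from 6 to 17 and lower from 2 to 5, and in ribosome density the genes of the table higher ranged from 1 to 12. Without cytosolic ribosomal protein genes, the 38 genes took 0.353% of trametinib input and 0.308% of trametinib footprints. With the replicate block, 10 and 3 autophagy genes were called higher and lower in input, where the numbers were not shown to pair the treatments, and 12 and 5 in footprints, where MAP1LC3B lost its call. The block ended no other call, and the calls that it added are among those listed above. For MITF, a filter on libraries of either kind gave 0.66 in input, -0.17 in footprints and -0.85 in ribosome density (edgeR adjusted p = 0.61, 0.55 and 0.93). The cause of these differences was not tested.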
